A study of Rattus norvegicus with 33 samples.

Results

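Mammary glands of pubertal rats, killed on postnatal day 63, were compared with those of pre-pubertal rats, killed on postnatal day 21. The arrays were taken by their labelled stage: 5 pubertal and 10 pre-pubertal arrays, which are 15 of the 33 arrays of a series that covers 6 stages of mammary development. The remaining stages were peri-pubertal (day 42, 5 arrays), lactation (day 146, 3 arrays), and parous and nulliparous adults (day 181, 5 arrays each). They entered the fit so that all stages shared one estimate of the spread, and only the day 42 arrays are described, as the step between both ends of puberty.

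All animals were female Sprague-Dawley rats, an outbred stock, and served as vehicle controls in a larger study of chemical exposure, so every group had received olive oil by gavage, at 0.5 mL up to day 63. The pups stayed with their dams until weaning on day 28, so the day 21 animals were unweaned and the day 63 animals were not. Total RNA came from the 5th caudal glands of both sides, extracted with 1 kit (Promega) for all 15 arrays. Collection was at random in the estrous cycle, whose phase is not given for single animals, and the day 21 animals were labelled pre-pubertal. Each stage was collected on 1 day. A collection day and a stage therefore cannot be told apart. The series text counts 10 pre-pubertal animals and the sample notes 5 animals per stage. If some of the 10 arrays shared an animal, the p-values are too small.

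The rat mammary gland at weaning is a small tree of ducts in a fat pad. During puberty ovarian estrogen and progesterone, with growth hormone and IGF1, drive the ducts to lengthen and branch, and prolactin acting through JAK2 and STAT5 turns on milk protein genes in alveolar cells. The gland also holds adipocytes, fibroblasts, vessels, nerves and immune cells, and a caudal sample can carry lymph node or muscle. In a bulk RNA sample fewer cells of a type and less RNA per cell cannot be told apart.

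Values are the authors' deposited log2 levels, 1 probe set per gene symbol, on a scale whose median over genes was 7.64. Levels near the bottom of this scale hold probe background, so a difference that starts there may understate the change. The first principal component held 44.4% of the variance among the 15 arrays and ran with stage. The second held 26% and separated labelled batch 1 (6 pre-pubertal and 3 pubertal arrays) from batch 2 (4 and 2). Pre-pubertal array 8 stood apart from its group, with a mean correlation of 0.878 to its fellows against 0.903 to 0.942 for the other 9. Pre-pubertal array 10 stood out for muscle genes: its mean level over skeletal muscle genes was 9.89, against 6.48 to 8.02 in the other pre-pubertal arrays and 6.47 to 6.57 in the pubertal arrays. None of 13 tested muscle genes passed the test (limma, 0 at an adjusted p under 0.05, 0 at an unadjusted p under 0.05).

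Over puberty 2109 of 10986 genes tested rose and 2060 fell, at an adjusted p under 0.05 in limma with batch as a term. These are 19.2% and 18.8% of the genes tested, and 37.9% were called in either direction. The median difference over all genes tested was -0.02, and the median size among called genes was 0.49 on the log2 scale. A change of at least 2-fold was seen in 434 genes that rose (3.95%) and 281 that fell (2.56%). All 5 pubertal arrays lay above all 10 pre-pubertal arrays for 651 genes (5.93%), and below them for 356 (3.24%), together 9.17%, and 995 of these 1007 were called. These shares are the background for every gene group described here.

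Each batch was also tested by itself. Batch 1 called 1770 genes up and 1754 down (16.1% and 16%). Batch 2, with 2 pubertal arrays, called 757 up and 375 down (6.89% and 3.41%). Without the batch term 916 genes rose and 697 fell, and counts in some lists dropped: endothelial falls went from 10 to 5, Notch falls from 7 to 2 and collagen falls from 6 to 2. No gene passed the test of a difference between the batches (limma interaction, 0 called, 704 of 10986 at an unadjusted p under 0.05).

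**Figure D1:**
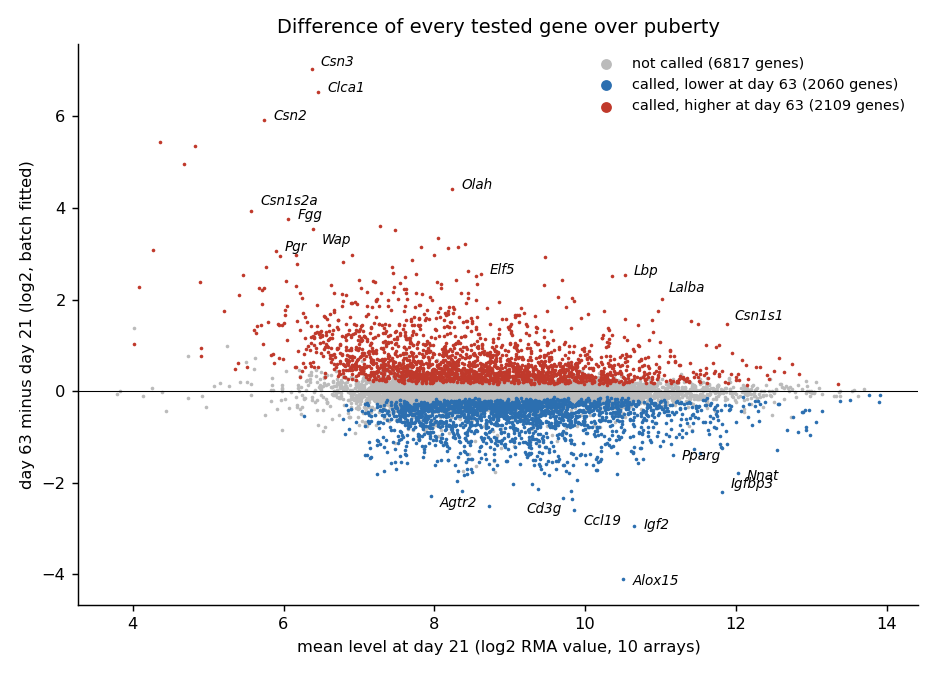
Each point is 1 of 10986 genes, with its mean log2 level on day 21 on the x axis and its log2 difference, day 63 minus day 21, on the y axis; called genes are coloured. The milk protein genes Csn3 and Csn2 and the chloride channel regulator Clca1 lie highest, at 7.02, 5.91 and 6.53, and the lipoxygenase Alox15 lies lowest, at -4.11.

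Milk protein genes held the steepest rise of all genes tested. Of 19 tested, 15 rose and none fell, with a median difference of 1.29 against -0.02 over all genes, and 12 had no overlap between the groups. The median was 1.47 in batch 1 and 1.48 in batch 2. Kappa-casein (Csn3), which stabilises the casein micelle, had pre-pubertal levels of 5.46, 6.24 and 7.84 and pubertal levels of 13.12, 13.45, 13.48, 13.52 and 13.41. Here and for every gene, day 21 levels are the lowest, median and highest of 10 arrays, and day 63 levels are those of arrays 1 to 5 in order. The difference was 7.02 ± 0.21 (standard error), a 130.1-fold rise with an adjusted p of 1.04e-20. All 5 pubertal arrays were close to each other and to the top of the scale.

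Beta-casein (Csn2), the calcium-binding bulk protein of milk, went from 4.36, 5.76 and 7.62 to 8.70, 12.68, 12.86, 12.89 and 11.12. Arrays 1 and 5 were the lowest of the pubertal arrays, yet still above every pre-pubertal array, and the difference was 5.91 ± 0.52 (60.1-fold, adjusted p 1.17e-09). The same pair of arrays was low for Csn1s2a, an alpha-S2 casein, with 6.76, 11.32, 11.49, 11.17 and 6.81 against 5.26, 5.55 and 5.999 before puberty (difference 3.94 ± 0.63, adjusted p 1.28e-05). They were low again for whey acidic protein (Wap), with 7.62, 11.75, 12.22, 10.40 and 7.66 against 6.18, 6.35 and 6.72 (difference 3.54 ± 0.56, adjusted p 1.05e-05). Arrays 1 and 5 belong to different batches, 1 and 2. For both genes these 2 arrays exceeded the highest pre-pubertal array by less than 1 log2 unit, and in batch 2 alone Csn1s2a did not pass (3.58, adjusted p 0.0636).

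Alpha-S1 casein (Csn1s1) and alpha-lactalbumin (Lalba), the cofactor of lactose synthesis, were already high in most pre-pubertal glands. Csn1s1 stood at 8.76, 12.04 and 13.10 before puberty and at 13.20, 13.33, 13.48, 13.43 and 13.37 in puberty, a difference of 1.47 ± 0.37 (adjusted p 0.00224). Lalba stood at 7.47, 11.27 and 12.94 on day 21 and at 12.90, 13.37, 13.33, 12.91 and 12.62 on day 63, a difference of 2.01 ± 0.46 (adjusted p 9.71e-04), and its groups overlapped. Pre-pubertal array 2 was the lowest for both genes and for the mean over luminal epithelial markers. Glycam1, a mucin-like milk protein also made in lymph node vessels, had 7.24, 12.68 and 13.35 on day 21 and 9.81, 13.47, 13.46, 12.63 and 11.49 on day 63 and did not pass the test (0.26 ± 0.89, adjusted p 0.848).

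Proteins of the milk fat globule rose as well. Muc15, a mucin of the globule membrane, differed by 3.35 ± 0.37, butyrophilin (Btn1a1) by 2.92 ± 0.48 and Muc1 by 2.38 ± 0.18. Xanthine dehydrogenase (Xdh), which works with butyrophilin in globule release, went from 10.43, 10.93 and 11.31 to 12.21, 12.31, 12.31, 12.07 and 12.02, without overlap (1.29 ± 0.12, adjusted p 1.71e-09). Mfge8, the milk fat globule factor that also marks dying cells for uptake, was abundant throughout and differed by 0.72 ± 0.08. The polymeric immunoglobulin receptor (Pigr), which carries antibodies into milk, had 6.80, 6.85, 6.83, 6.87 and 8.78 against 6.03, 6.29 and 6.60, with array 5 far above the other pubertal arrays (0.93 ± 0.20, adjusted p 6.25e-04). Wfdc18, Spp1 and Lpo did not pass, with differences of 0.12, 0.10 and -0.03.

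The 5 casein genes lie in 1 cluster on rat chromosome 14, in the order Csn3, Csn1s2b, Csn1s2a, Csn2, Csn1s1 by RefSeq coordinates (GRCr8), so their promoters are shown to set the sequences beside the differences. The windows run from -140 to -51, counted from the RefSeq start of each gene, written 5′ to 3′ on the gene's own strand. Capitals mark TTCNNNGAA, the palindromic form bound by STAT5-type factors, and AACCACA.
Csn1s1 (chr14:20638900-20638989, minus strand): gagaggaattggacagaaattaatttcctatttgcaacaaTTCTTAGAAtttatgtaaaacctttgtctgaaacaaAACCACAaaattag
Csn2 (chr14:20601684-20601773, plus strand): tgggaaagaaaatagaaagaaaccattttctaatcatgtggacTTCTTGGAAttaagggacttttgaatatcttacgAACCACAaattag
Csn1s2a (chr14:20574522-20574611, minus strand): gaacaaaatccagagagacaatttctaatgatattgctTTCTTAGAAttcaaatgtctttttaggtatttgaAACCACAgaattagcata
Csn1s2b (chr14:20545669-20545758, minus strand): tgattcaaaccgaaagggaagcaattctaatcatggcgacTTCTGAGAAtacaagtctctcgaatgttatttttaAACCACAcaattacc
Csn3 (chr14:20439881-20439970, minus strand): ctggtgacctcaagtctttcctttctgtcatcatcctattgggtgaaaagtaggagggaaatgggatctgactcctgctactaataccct
TTCNNNGAA began at -100 in Csn1s1, -97 in Csn2, -102 in Csn1s2a and -100 in Csn1s2b, and AACCACA at -64, -63, -68 and -65. Neither was found in the Csn3 window, the casein with the largest difference, and a missing match says only that these letters are not there. Differences among the 4 genes that share both motifs ran from 0.95 (Csn1s2b) to 5.91 (Csn2). Of the 15 milk genes that rose, 14 had a RefSeq promoter entry. In the 250 bases before their starts, 5 of 14 held TTCNNNGAA and 4 of 14 held AACCACA, searched on both strands. Over all 33469 promoters the shares were 7.67% and 4.59%. AACCACA was chosen after the sequences had been read.

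**Figure D2:**
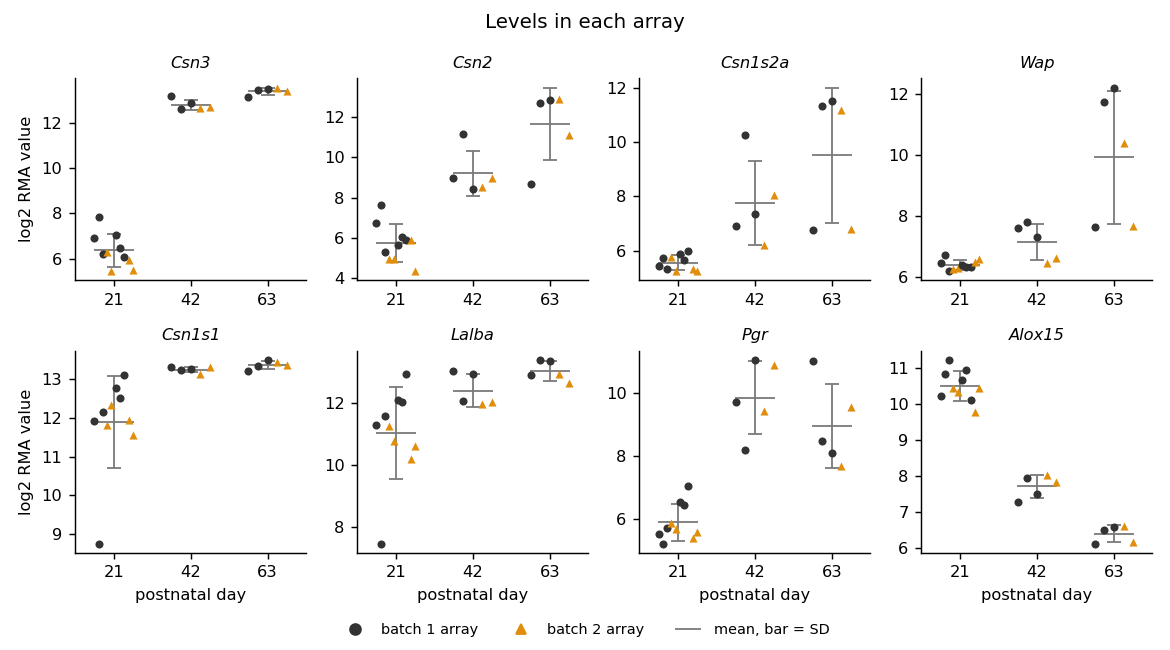
Log2 level of 8 genes in each array at days 21, 42 and 63, with the batch shown by the marker and the mean and SD of each day in grey. Csn3 is uniformly high on day 63, Csn2, Csn1s2a and Wap are low in pubertal arrays 1 and 5, where Pgr is high, and Alox15 falls at each step.

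Luminal epithelial markers rose almost as a block. Of 21 tested, 20 rose and none fell, with a median of 1.67, and 8 had no overlap. The list mean was 6.76, 8.15 and 9.59 (lowest, median and highest) before puberty and 9.71 to 10.1 in puberty. The adhesion protein Epcam had 4.498, 8.76 and 10.04 before puberty and 10.71, 11.09, 11.30, 11.07 and 11.12 in puberty (2.62 ± 0.49, adjusted p 1.15e-04). Cd24, a surface protein of luminal cells, differed by 2.33 ± 0.28, the transcription factor Ehf by 2.13 ± 0.35, keratin 19 (Krt19) by 1.94 ± 0.26 and keratin 8 (Krt8) by 1.56 ± 0.27. Krt8 overlapped, and pre-pubertal array 8, the highest for this list, reached the pubertal range.

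The fit was repeated with the array mean of the luminal list as a covariate. Of the 4169 calls, 868 (20.8%) then remained in the same direction, none was called the opposite way, and 489 genes were called up and 487 down. Among milk proteins 9 were still called, Csn3, Csn2, Wap and Muc1 among them. The fitted differences of Csn1s1, Lalba and Btn1a1 were -0.62, -0.80 and -0.0052 and did not pass. These 3 genes also did not pass in batch 1 alone. Among the epithelial and transport lists, 2 luminal genes were called up (20 without the covariate), 1 tight junction gene (12), 1 hormone-sensing gene (7), 3 progenitor genes (8) and 4 transport genes (9). Cldn3, Cldn4 and Cldn7 are in both the luminal and the tight junction list. Of basal genes 0 were called up, down from 8 (limma, 2 of 13 up at an unadjusted p under 0.05). In other lists the counts of rises moved both ways. They went to 1 for EGF pathway genes (4) and for matrix proteases and inhibitors (9), and to 17 for interferon genes (14) and 10 for macrophage genes (8). The luminal list is itself part of the outcome, and its mean was lower in every pre-pubertal array than in every pubertal array. Fewer luminal calls are therefore built into this fit, and it estimates the stage difference less precisely. It describes shared variation and does not separate cell number from regulation.

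Genes of hormone-sensing luminal cells rose in 7 of 10 tested cases and fell in 1, with a median of 0.95. The progesterone receptor (Pgr) went from 5.22, 5.70 and 7.03 to 10.99, 8.46, 8.09, 7.69 and 9.55 (3.06 ± 0.52, adjusted p 3.40e-05). Its highest pubertal arrays, 1 and 5, were those with the lowest Csn2, Csn1s2a and Wap. The prolactin receptor (Prlr) had 7.002, 7.78 and 8.64 on day 21 and 10.11, 9.91, 9.90, 9.62 and 10.02 on day 63, without overlap (2.15 ± 0.22, adjusted p 1.17e-08). Foxa1 and Gata3, transcription factors of this lineage, differed by 1.36 ± 0.23 and 1.22 ± 0.21.

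Estrogen receptor alpha (Esr1) did not pass, at 8.54, 9.15 and 9.87 before puberty and 8.88, 9.29, 9.11, 8.82 and 8.97 in puberty (-0.20 ± 0.15, adjusted p 0.289). Amphiregulin (Areg), the EGF-family ligand induced by estrogen in ducts, did not pass either (0.67 ± 0.42, adjusted p 0.214), and array 1 was its highest, at 8.91, against 7.27 to 7.61 in arrays 2 to 5. Rankl (Tnfsf11), the paracrine mediator of progesterone that T cells also make, fell by 0.99 ± 0.25 (adjusted p 0.00256). Its levels were 6.69, 7.95 and 8.64 on day 21 and 6.93, 6.65, 6.68, 7.16 and 6.82 on day 63. With the luminal covariate the Tnfsf11 difference was 0.022 and did not pass (limma, adjusted p 0.978). Wnt4, another progesterone target, rose by 0.58 ± 0.15.

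Progenitor genes, alveolar and luminal, rose in 8 of 10 tested and fell in none, with a median of 1.21. Elf5, the transcription factor that commits progenitors to the alveolar fate, went from 5.80, 8.96 and 10.12 to 10.93, 11.12, 11.15, 11.24 and 11.41 (2.56 ± 0.38, adjusted p 4.31e-06). The receptor Kit had 8.49, 9.35 and 10.09 on day 21 and 10.67, 10.91, 11.06, 10.97 and 11.22 on day 63, without overlap (1.64 ± 0.19). Cd14, a co-receptor for bacterial lipopolysaccharide found on these cells and on macrophages, rose by 1.84 ± 0.19, in near-equal steps of 0.92 to day 42 and 0.92 from day 42. Folate receptor 1 (Folr1) rose by 1.53 ± 0.16. Aldh1a3 and Bcl11a did not pass (-0.28 and -0.08).

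Basal and myoepithelial genes rose in 8 of 13 and fell in 2, with a median of 0.48. Keratin 14 (Krt14) had 6.41, 7.82 and 9.07 on day 21 and 9.82, 9.78, 9.73, 9.53 and 9.55 on day 63, without overlap (1.89 ± 0.30, adjusted p 1.07e-05). The oxytocin receptor (Oxtr), which triggers milk ejection, had 7.13, 8.21 and 9.13 on day 21 and 10.81, 10.57, 10.23, 9.31 and 9.50 on day 63 (1.84 ± 0.23, adjusted p 2.85e-07). Tp63, the master regulator of basal cells, rose by 1.45 ± 0.21. The contractile gene Myh11, which vascular muscle also expresses, did not pass (0.21). Vimentin (Vim), which stromal cells also express, fell by 0.21 ± 0.04. The 2 falls became 1 without pre-pubertal array 5 or pubertal array 2, 3 or 4, and 0 without the batch term or in batch 2 alone (limma, 2 and 0 down at an unadjusted p under 0.05).

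Tight junction genes rose in 12 of 16 and fell in 3, with a median of 0.999. Claudin 8 (Cldn8) had 5.72, 7.65 and 9.14 on day 21 and 10.04, 10.49, 10.59, 10.10 and 10.35 on day 63, without overlap (2.56 ± 0.35, adjusted p 1.16e-06). Occludin (Ocln) rose by 1.71 ± 0.17, and claudins 3, 4 and 7 by 1.57, 1.58 and 1.59. Claudin 1 (Cldn1) moved the other way, from 9.16, 9.51 and 10.38 to 8.28, 7.88, 7.72, 7.65 and 8.09, also without overlap (-1.69 ± 0.33, adjusted p 1.41e-04). Claudin 5, an endothelial claudin, fell by 0.62 ± 0.13.

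Of 14 tested genes for lactose synthesis and transport, 9 rose and 1 fell, with a median of 0.73, and 8 had no overlap. The water channel Aqp5 had 5.71, 7.75 and 9.72 on day 21 and 11.50, 10.89, 10.47, 10.46 and 11.46 on day 63 (3.14 ± 0.45, adjusted p 2.56e-06). The phosphate transporter Slc34a2 rose by 2.28 ± 0.33, and Abcg2, the pump that moves vitamins and drugs into milk, by 1.46 ± 0.20. Slc5a8, a transporter of lactate and short fatty acids, was among the 12 steepest rises without overlap, from 5.63, 7.42 and 8.81 to 10.66, 11.50, 11.45, 10.65 and 10.73 (3.51 ± 0.40). The glucose transporter Slc2a1 did not pass (0.11).

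The gene with the second steepest rise was Clca1, a secreted regulator of chloride channels. It went from 5.15, 6.43 and 7.71 to 12.25, 13.36, 13.30, 13.40 and 12.66 (6.53 ± 0.34, 92.6-fold, adjusted p 2.86e-14), and array 1 was again the lowest in puberty. Nearly all of the difference was present on day 42 (6.31). Anxa8, an annexin, rose by 3.60 ± 0.22 and the fibrinogen gamma chain (Fgg) by 3.76 ± 0.44. LOC691897 had 3.44, 4.39 and 5.01 on day 21 and 11.45, 8.74, 8.75, 9.34 and 10.75 on day 63 (5.44 ± 0.51), and LOC690359 had 4.51, 4.65 and 4.92 on day 21 and 10.70, 8.58, 8.23, 9.67 and 10.95 on day 63 (4.95 ± 0.49). These unnamed loci were highest in pubertal arrays 1 and 5.

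White adipocyte genes fell together. Of 23 tested, 20 fell and none rose, with a median of -1.003, and 15 had no overlap. The median was -0.91 in batch 1 and -1.05 in batch 2, and 17 were still called down when the luminal list mean was a covariate. Pparg, the nuclear receptor that drives fat cell differentiation, had 10.63, 11.25 and 11.51 on day 21 and 9.99, 9.65, 9.90, 9.64 and 9.70 on day 63 (-1.39 ± 0.16, adjusted p 1.17e-07). Perilipin 1 (Plin1), which coats fat droplets, had 12.13, 12.59 and 12.84 on day 21 and 11.49, 11.08, 11.25, 11.16 and 11.37 on day 63 (-1.28 ± 0.16, adjusted p 3.43e-07).

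Other members fell less. Adiponectin (Adipoq) fell by 0.42 ± 0.13 with overlapping groups, and Fabp4 by 0.77 ± 0.12. The insulin-responsive glucose transporter Slc2a4 fell by 1.21 ± 0.15 and the beta-3 adrenoceptor Adrb3 by 1.13 ± 0.15. Leptin (Lep) had 7.51, 9.03 and 10.24 on day 21 and 8.41, 7.06, 7.47, 8.36 and 8.67 on day 63 (-1.04 ± 0.32, adjusted p 0.0111), and its call was lost without pubertal array 2 (-0.85, adjusted p 0.0562). Cfd, Rbp4 and Npr3 did not pass (-0.17, -0.28 and -0.61). The thermogenic gene Ucp1 was under the level filter.

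Genes of fatty acid and milk fat synthesis were split, with 5 up and 9 down of 22 and a median of -0.05. Olah, the thioesterase that ends fatty acid chains at medium length in milk fat, had 6.57, 7.93 and 10.23 on day 21 and 12.42, 12.70, 12.75, 12.72 and 12.61 on day 63, without overlap (4.40 ± 0.33, 21.2-fold, adjusted p 9.03e-11). Malic enzyme (Me1), a source of NADPH, rose by 1.82 ± 0.24, and the droplet protein Plin2 by 1.68 ± 0.14. The last steps of triglyceride synthesis went the other way: Dgat1 fell by 0.93 ± 0.13 and Dgat2 by 0.78 ± 0.15. The desaturase Scd rose by 1.54 ± 0.43, and Acly, which supplies acetyl-CoA, did not pass (0.07).

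Sterol synthesis genes fell in 7 of 14 and rose in none, with a median of -0.36. The median was -0.47 in batch 1 and -0.24 in batch 2, where 1 was called down (limma, 4 down at an unadjusted p under 0.05). Idi1, an early enzyme of the pathway, fell by 1.07 ± 0.31 and Msmo1, a late one, by 0.75 ± 0.13. Nuclear genes of oxidative phosphorylation fell in 13 of 23 and rose in none, but by little, with a median of -0.25 and no gene free of overlap. Atp5mc1, a subunit of the ATP synthase ring, fell by 0.75 ± 0.13. In batch 2 alone 2 of these 23 were called, and without the batch term none was (limma, 1 at an unadjusted p under 0.05).

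The largest fall of all belonged to Alox15, a lipoxygenase of eosinophils, macrophages and epithelium that makes bioactive lipids. Its levels were 9.79, 10.45 and 11.22 before puberty and 6.13, 6.49, 6.58, 6.63 and 6.18 in puberty, with no overlap, and the difference was -4.11 ± 0.16 (17.2-fold lower, adjusted p 1.91e-17). The fall was -4.28 in batch 1 and -3.85 in batch 2. It came in both steps, -2.78 to day 42 and -1.32 from day 42. Beside it, the eosinophil attractant Ccl11 rose from 6.93, 7.54 and 8.17 to 9.44, 10.02, 10.35, 10.19 and 9.59 (2.37 ± 0.23), and the eosinophil genes Prg2, Epx and Ccr3 were under the level filter.

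Of the growth hormone and IGF axis, 4 of 15 genes rose and 2 fell, with a median of 0.09. Igf2, the imprinted fetal growth factor, had 9.46, 10.77 and 11.60 on day 21 and 7.78, 7.72, 7.90, 7.96 and 7.25 on day 63 (-2.94 ± 0.24, 7.65-fold lower, adjusted p 5.37e-10). Igfbp3, the main carrier of circulating IGFs, had 11.16, 11.92 and 12.11 on day 21 and 9.18, 9.84, 9.44, 9.78 and 9.85 on day 63 (-2.19 ± 0.24, adjusted p 3.93e-08). Igfbp2 and Igfbp5, further IGF binding proteins, rose by 2.01 ± 0.28 and 1.02 ± 0.15, none of the 4 with overlap. Igf1 itself, at 11.63, 12.14 and 12.29 on day 21 and 12.09, 11.85, 11.94, 11.74 and 11.96 on day 63, did not pass (-0.19 ± 0.11, adjusted p 0.182), nor did the receptors Igf1r (0.09) and Ghr (-0.15).

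Among imprinted genes of perinatal growth, 5 of 8 fell and none rose, with a median of -0.61. Besides Igf2, neuronatin (Nnat) fell without overlap, from 11.41, 12.19 and 12.80 to 10.58, 10.65, 10.14, 9.85 and 10.02 (-1.78 ± 0.22), and the growth-arrest factor Plagl1 fell by 0.90 ± 0.17. Dlk1 and Cdkn1c did not pass (-0.21 and 0.15). The angiotensin receptor Agtr2, high in fetal tissues, went from 6.60, 8.03 and 9.10 to 5.83, 5.68, 5.14, 5.93 and 5.78 (-2.28 ± 0.31, adjusted p 1.27e-06).

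Cell division genes fell in 5 of 23, near the 18.8% over all genes tested, and rose in none, with a median of -0.36. The median was -0.53 in batch 1 and -0.14 in batch 2, where 0 were called (limma, 1 at an unadjusted p under 0.05). Mki67, the proliferation marker, had 9.16, 9.999 and 11.05 on day 21 and 7.73, 10.03, 10.13, 10.82 and 9.08 on day 63 and did not pass (-0.51 ± 0.48, adjusted p 0.425), with pubertal arrays 1 and 5 the lowest. Thymidylate synthase (Tyms) fell by 0.74 ± 0.18. Without pubertal array 1 or 2 the count of 5 went to 1, and without array 5 it went to 3.

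In the prolactin pathway 5 of 12 genes rose and 2 fell, with a median of 0.36. The kinase Jak2 rose by 0.64 ± 0.11 and Stat5a by 0.48 ± 0.13, while Stat5b did not pass (0.10). Of 14 ovarian steroid receptors and targets, 3 rose and 4 fell. The glucocorticoid- and progestin-responsive genes Fkbp5 and Tsc22d3 fell without overlap, by 1.26 ± 0.16 and 1.10 ± 0.13. The glucocorticoid receptor Nr3c1 did not pass (-0.16).

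EGF receptors rose as a family: Erbb4 by 1.85 ± 0.25, Erbb3 by 1.70 ± 0.17, Egfr by 1.01 ± 0.15 and Erbb2 by 0.91 ± 0.15. They were the 4 that rose of 11 tested ligands, receptors and sheddases of this pathway. The ligand Nrg4 was the 1 that fell, and its call was lost without pubertal array 1 or 2. With the luminal covariate 1 of the 11 genes was called up and 1 down. Erbb3 had 8.52, 9.16 and 9.84 on day 21 and 10.71, 11.15, 11.01, 10.68 and 10.88 on day 63, without overlap (adjusted p 9.81e-09). In the FGF family 3 of 13 rose and 4 fell. The receptor Fgfr2 rose by 1.37 ± 0.17, whereas its stromal ligands Fgf7 and Fgf10 fell by 0.79 ± 0.16 and 0.65 ± 0.20. The signal inhibitor Spry4 fell by 1.09 ± 0.13.

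Of 24 Wnt pathway genes, 10 rose and 6 fell, with a median of 0.24 (0.15 in batch 1 and 0.20 in batch 2). Without the batch term 3 were called up and 4 down, and in batch 2 alone 2 and 2. With the luminal covariate 1 was called up and 2 down. The secreted antagonists Sfrp1 and Dkk3 rose without overlap (1.10 ± 0.12 and 0.78 ± 0.14), and Dkk2 fell by 1.45 ± 0.25. Rspo3, which amplifies Wnt signals, had 6.404, 7.10 and 7.38 on day 21 and 10.13, 7.80, 7.39, 7.14 and 9.40 on day 63, with arrays 1 and 5 far above the rest (1.32 ± 0.43, adjusted p 0.0167). Its call was lost without pubertal array 1 (0.84, adjusted p 0.115) or 5 (1.06, adjusted p 0.0764). The largest Wnt-list falls were Lef1 and Tcf7, transcription factors that T cells also express (-2.19 and -1.81).

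In the TGF-beta and BMP family 5 of 19 rose and 6 fell. Tgfb3 had 8.87, 9.85 and 11.01 on day 21 and 11.66, 12.10, 11.97, 11.66 and 11.74 on day 63, without overlap (1.98 ± 0.19, adjusted p 4.88e-09), and the BMP receptor Bmpr1b rose by 1.74 ± 0.21. The BMP antagonist Grem1 fell by 2.18 ± 0.44, and the BMP-induced genes Id1 and Id3 by 0.71 ± 0.16 and 0.83 ± 0.14. The ligand Tgfb2 did not pass (0.18). Of 13 Notch genes 3 rose and 7 fell, with a median of -0.27. Batch 2 alone called 0 of them (limma, 1 up and 5 down at an unadjusted p under 0.05). Without the batch term 0 were called up and 2 down. Notch1 and Notch3, a receptor of vessel walls, fell by 0.42 ± 0.07 and 0.63 ± 0.09.

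Matrix genes did not move as one. Collagen genes were called down in 6 of 19 and up in 1, or 2 without pre-pubertal array 8 or pubertal array 5, with a median of -0.11. By step, 6 were called up and 1 down to day 42, and 0 up and 5 down from day 42. Col1a1 stayed near the top of the scale, at 13.001, 13.34 and 13.57 on day 21 and 13.31, 13.13, 13.28, 13.24 and 13.09 on day 63, and did not pass (-0.11 ± 0.15, adjusted p 0.587). Col4a1, of basement membranes, fell by 0.52 ± 0.12, and Col17a1, of basal cell attachment, rose by 1.33 ± 0.21. Elastin (Eln) went from 10.47, 11.05 and 11.58 to 10.35, 9.94, 9.96, 9.69 and 9.79, without overlap (-1.09 ± 0.12, adjusted p 5.29e-08), chiefly between days 42 and 63 (-0.81, adjusted p 0.00383). The cross-linking enzyme Lox did not pass (-0.18).

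Proteases and their inhibitors rose in 9 of 20 and fell in 3, with a median of 0.31. The 9 rises became 4 without the batch term, 3 in batch 2 alone and 1 with the luminal covariate. Mmp12, the macrophage elastase, had 5.79, 6.18 and 6.51 on day 21 and 9.78, 9.06, 8.83, 8.55 and 9.45 on day 63, without overlap (2.97 ± 0.19, 7.86-fold, adjusted p 3.27e-12). Mmp14 and Mmp2, which act together at the cell surface, rose by 0.87 ± 0.14 and 0.67 ± 0.13, and Mmp3 did not pass (-0.56). The inhibitor Timp4, made by adipocytes among other cells, fell from 9.70, 10.18 and 10.54 to 8.77, 8.38, 8.35, 8.20 and 8.43 (-1.72 ± 0.24). Matricellular genes and small proteoglycans rose in 8 of 17 and fell in 1. Ccn5 rose by 1.05 ± 0.18 and fibronectin (Fn1) by 0.54 ± 0.14. Each batch alone called 3 of this list up, the fit without the batch term 4 and that with the luminal covariate 1. Without pubertal array 3 the count of 8 was 5, and the single fall was lost without pre-pubertal array 5, 6, 7 or 8 or pubertal array 2 or 5. Hyaluronan synthase 2 (Has2) rose by 1.21 ± 0.25.

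Endothelial genes fell in 10 of 17 and rose in 1, with a median of -0.50. The median was -0.47 in batch 1 and -0.44 in batch 2, where 1 was called down and 0 up (limma, 7 down at an unadjusted p under 0.05). Von Willebrand factor (Vwf) had 8.48, 9.04 and 9.61 on day 21 and 8.52, 8.53, 8.40, 8.20 and 8.04 on day 63 (-0.69 ± 0.09, adjusted p 1.66e-06). Esam, a junction protein, fell by 0.93 ± 0.15, while the VEGF receptor Flt1 did not pass (-0.19). The single rise was podoplanin (Pdpn), which myoepithelial and stromal cells also express (0.53 ± 0.17), lost without pubertal array 1 (0.43, adjusted p 0.0604). Genes of pericytes and vascular smooth muscle fell in 6 of 12, Mcam by 0.83 ± 0.12 and desmin (Des) by 0.88 ± 0.19.

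Genes of Schwann cells and myelin fell in 6 of 12 and rose in 2, with a median of -0.41. The myelin protein Pmp22 went from 12.51, 13.06 and 13.21 to 12.39, 11.85, 11.87, 11.93 and 12.11, without overlap (-0.95 ± 0.12, adjusted p 5.23e-07), and Drp2 fell by 1.38 ± 0.19. Ugt8 and Mal, outside this list, were among the 12 steepest falls without overlap: Ugt8, which makes galactosylceramide, fell by 1.71 ± 0.22 and Mal by 1.70 ± 0.17. Scn7a, a sodium channel of glia and muscle, fell by 1.78 ± 0.27. Prodh, of proline breakdown, fell by 1.71 ± 0.19. Sox10, shared by Schwann cells and luminal progenitors, rose by 1.20 ± 0.16.

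T cell genes fell in 16 of 18 and rose in none, with a median of -1.60, yet every one overlapped. Cd3g, a chain of the T cell receptor complex, had 6.32, 10.34 and 11.10 before puberty and 7.12, 6.58, 6.44, 9.10 and 8.13 in puberty (-2.35 ± 0.67, adjusted p 0.00656). The difference was -3.18 in batch 1, and -1.10 in batch 2, where pubertal arrays 4 and 5 were higher than arrays 1 to 3. The list median was -2.13 in batch 1 and -0.71 in batch 2, and batch 2 alone called 0 of the 18 (limma, 0 at an unadjusted p under 0.05). The count fell from 16 to 10 without pubertal array 2 or 3.

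B cell genes had a median of -1.17, with 6 of 15 down and none up. The list median was -1.59 in batch 1 and -0.56 in batch 2, and batch 2 alone called 1 down (limma, 1 at an unadjusted p under 0.05). Without the batch term 2 were called down, and with the luminal covariate 1. Cd79b, of the B cell receptor, had 7.42, 10.04 and 11.14 on day 21 and 7.96, 7.09, 8.05, 8.85 and 8.67 on day 63 (-1.60 ± 0.62, adjusted p 0.0409), but its call was lost without any single one of pre-pubertal arrays 1, 2, 3, 6, 7 and 9 and pubertal arrays 1, 2, 3 and 5 (adjusted p from 0.0503 to 0.128). Ms4a1 (CD20) did not pass (-1.76), and passed without pre-pubertal array 4 (-1.96, adjusted p 0.0383) or 8 (-2.07, adjusted p 0.0199). The count of 6 became 14 without pre-pubertal array 8, 12 without pre-pubertal array 4, and 3 without pubertal array 2 or 5. Ebf1, which adipocyte precursors also express, was the one member without overlap (-0.66 ± 0.08). Of 12 genes of lymph node stroma and chemokines, 5 fell and none rose: Ccl19, Madcam1, Ltb, Ccr7 and Cxcr5. Ccr7 is also counted in the T cell list and Cxcr5 in the B cell list. The chemokine Ccl19 had 6.95, 10.15 and 11.52 on day 21 and 6.65, 6.61, 6.66, 8.21 and 8.15 on day 63 (-2.60 ± 0.76, adjusted p 0.00778). The count of 5 became 8 without pre-pubertal array 8, 3 without the batch term and 1 with the luminal covariate. The median of this list was -0.82 in batch 1 and -0.43 in batch 2, where 0 were called (limma, 1 at an unadjusted p under 0.05).

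Pre-pubertal array 8 had the lowest T and B cell list means of its group, 6.73 and 6.94, and the highest luminal mean, 9.59. With the B cell list mean as a covariate 4 of 18 T cell genes were called down and 1 up, and with the luminal list mean 0 were called down and 1 up (limma, 0 of 18 down at an unadjusted p under 0.05).

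**Figure D3:**
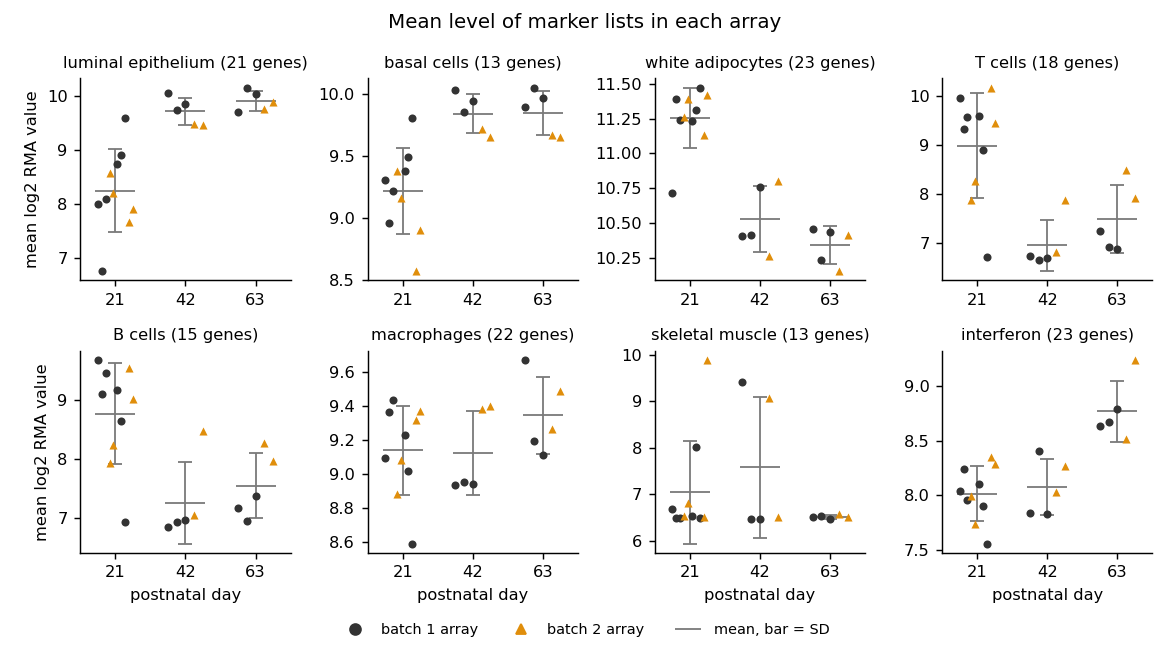
Mean log2 level over the tested genes of 8 lists in each array, by day (21, 42 and 63), with the batch shown by the marker and the mean and SD of each day in grey. Luminal and interferon means are higher on day 63 and white adipocyte means lower, T and B cell means spread widely on day 21 and overlap day 63, and 1 pre-pubertal array stands out for muscle at 9.89.

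Other immune groups moved differently. Macrophage and monocyte genes rose in 8 of 22 and fell in 1, with a median of 0.28. Adgre1, the classic macrophage surface receptor, had 7.14, 7.65 and 8.04 on day 21 and 9.60, 8.88, 8.87, 8.27 and 8.45 on day 63, without overlap (1.15 ± 0.17, adjusted p 4.35e-06), whereas Csf1r and Cd68 did not pass (-0.03 and 0.06). The one that fell, Timd4, did so by 1.33 ± 0.34, and the count of 1 became 3 without pre-pubertal array 8 and 2 without pubertal array 1. Among genes of plasma cells and immunoglobulin transfer 5 of 11 rose and none fell: Jchain, Xbp1, Sdc1, Fkbp11 and Pigr, which is also in the milk protein list. Mzb1, Prdm1, Irf4, Derl3, Txndc5 and Ccl28 did not pass. With the luminal covariate 1 member was called up (limma, 4 at an unadjusted p under 0.05). The joining chain Jchain had 5.16, 9.15 and 9.73 on day 21 and 10.96, 9.56, 10.05, 10.83 and 11.35 on day 63 (1.996 ± 0.47, adjusted p 0.00139), and Xbp1 rose by 0.83 ± 0.12. Granzyme A (Gzma) was the only one of 10 cytotoxic cell genes called, from 4.48, 4.84 and 5.55 to 7.34, 7.33, 7.40, 7.07 and 7.18 (2.38 ± 0.22, adjusted p 2.51e-09).

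Interferon response genes rose in 14 of 23 and fell in none, with a median of 0.65, and 8 had no overlap. Irf7, the factor that amplifies the response, had 7.80, 8.08 and 8.36 on day 21 and 9.65, 9.50, 9.80, 9.28 and 10.25 on day 63 (1.63 ± 0.19, adjusted p 1.27e-07). Mx2, an antiviral GTPase, had 6.20, 6.50 and 7.37 on day 21 and 7.78, 8.15, 8.65, 7.65 and 9.21 on day 63 (1.67 ± 0.25), and Isg15, a ubiquitin-like modifier, had 5.21, 5.41 and 6.32 on day 21 and 6.46, 6.37, 6.77, 6.71 and 8.39 on day 63 (1.34 ± 0.21). Pubertal array 5 was the highest for all 3 genes. With the luminal covariate 17 were called up, and batch 2 alone called 5. Irf1 and Psmb8 did not pass (-0.34 and 0.01).

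Of 17 genes of the acute phase, STAT3 and involution, 14 rose and 1 fell, with a median of 1.02, and 11 had no overlap. The single fall, haptoglobin (Hp), lost its call without pubertal array 5. With the luminal covariate 8 members were called up and 0 down. Lcn2 is also in the luminal list, Cd14 and Lif are in the progenitor list, and other members are shared with further lists. The lipopolysaccharide-binding protein Lbp had 9.65, 10.53 and 11.82 on day 21 and 12.91, 13.27, 13.20, 12.92 and 13.04 on day 63 (2.54 ± 0.23, 5.84-fold, adjusted p 1.71e-09). The metallothioneins Mt1 and Mt2A rose by 1.75 ± 0.19 and 1.46 ± 0.12, the cytokine Lif by 1.22 ± 0.28 and Stat3 itself by 0.78 ± 0.11. Complement genes rose in 7 of 13 and fell in none, a count of 4 without pubertal array 1. C6, of the membrane attack complex, had 6.62, 7.58 and 8.05 on day 21 and 10.67, 9.69, 10.30, 9.85 and 10.24 on day 63 (2.71 ± 0.24, adjusted p 1.17e-09), and C3 did not pass (0.40).

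Of 9 tested genes of vitamin D and prohormone processing 3 separated without overlap, all upward. Cyp24a1, which breaks down active vitamin D, had 5.69, 5.91 and 6.35 on day 21 and 7.89, 9.68, 9.91, 9.24 and 7.73 on day 63 (2.94 ± 0.26, adjusted p 1.70e-09). The vitamin D receptor (Vdr) had 6.80, 7.36 and 8.66 on day 21 and 9.14, 10.08, 9.98, 9.54 and 9.35 on day 63 (2.17 ± 0.20). The prohormone convertase Pcsk2 had 5.39, 5.75 and 5.99 on day 21 and 7.28, 8.18, 8.24, 7.77 and 8.51 on day 63 (2.26 ± 0.17, adjusted p 9.03e-11), and proenkephalin (Penk) fell by 1.06 ± 0.25. In all, 4 of 9 tested members rose and 3 fell. Of retinoid and prostaglandin genes, 5 of 15 rose and 2 fell: the retinol transporter Stra6 rose by 1.74 ± 0.22 and the prostaglandin E synthase Ptges by 1.40 ± 0.14.

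Clock genes changed in both directions, with 4 of 14 up and 5 down. Npas2, a partner of Bmal1, rose without overlap (1.47 ± 0.14), Per1 fell from 9.10, 9.60 and 10.25 to 8.82, 8.63, 8.63, 7.38 and 7.69 (-1.41 ± 0.18, adjusted p 7.19e-07), and Per2 fell by 0.69 ± 0.12. The hour of collection is not given in the sources used here. Of 17 immediate early genes 2 rose and 4 fell, Zfp36 by 0.93 ± 0.19, and Fos and Egr1 did not pass (0.19 and -0.08). The 2 rises fell to 1 without pre-pubertal array 6 or pubertal array 1, 2, 4 or 5. Heat shock genes rose in 2 of 12 and fell in 4: Hspa4l rose by 1.44 ± 0.16 and the small chaperone Cryab fell by 1.33 ± 0.17. Among 22 genes of endoplasmic reticulum folding only Xbp1 was called, a count of 4 without pre-pubertal array 5 or 8 and of 2 without pubertal array 1 or 4. From day 21 to day 42, however, 13 of the 22 were called up, and from day 42 to day 63 3 were called down (medians 0.31 and -0.23). Of 13 cytosolic ribosomal protein genes 1 fell, Rpl27a by 0.36 ± 0.11.

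**Figure D4:**
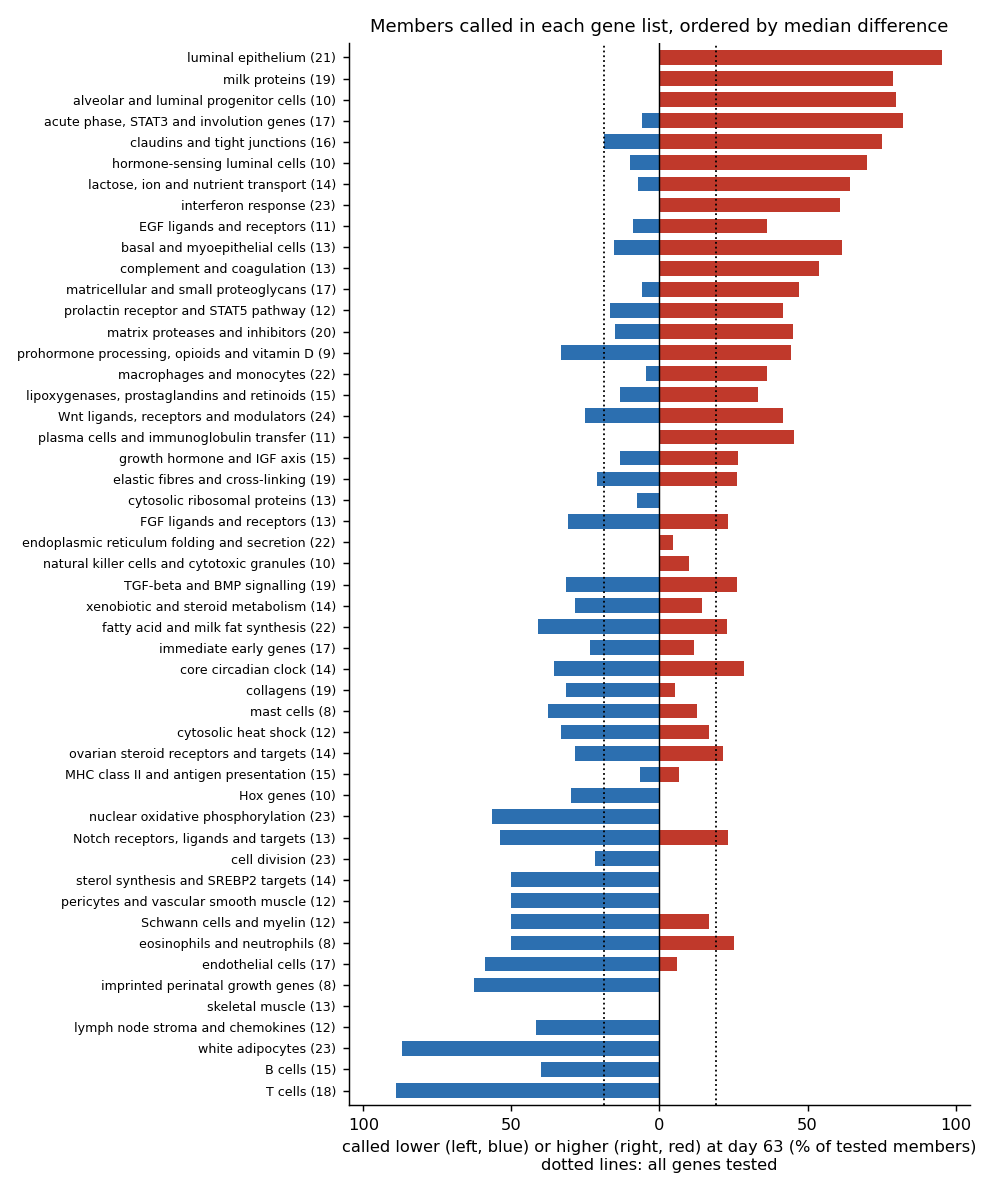
Share of tested members called up (right) and down (left) in each gene list with at least 8 tested members, in percent, ordered by the list's median difference, with the background over all genes tested (19.2% up, 18.8% down) as dotted lines. Luminal epithelium (20 of 21 up) and white adipocytes (20 of 23 down) are near the ends.

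Of 363 microRNA genes on the array 52 were tested, and 3 rose and 6 fell, lower shares than the 19.2% and 18.8% over all genes tested. Their probe sets measure the gene or its hairpin and do not tell the mature arms apart. The mature sequences of 4 called genes, chosen after their values were seen, are shown from RefSeq (GRCr8): Mir365b and Mir218-1, which fell and rose without overlap, and Mir21 and Mir142, which overlapped. They are printed with the seed, bases 2 to 8, in capitals. No seed was shared among them.
Mir365b (rno-miR-365-3p): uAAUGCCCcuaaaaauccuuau
Mir218-1 (rno-miR-218a-5p): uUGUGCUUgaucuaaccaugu
Mir21 (rno-miR-21-5p): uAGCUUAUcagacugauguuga
Mir142 (rno-miR-142-3p): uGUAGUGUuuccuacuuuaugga
Mir365b had 8.04, 8.49 and 8.86 on day 21 and 7.31, 7.34, 7.27, 7.23 and 7.65 on day 63, without overlap (-1.11 ± 0.14, adjusted p 4.21e-07). Mir218-1 had 6.69, 7.19 and 7.69 on day 21 and 7.86, 7.72, 7.85, 8.12 and 7.76 on day 63, also without overlap (0.76 ± 0.15, adjusted p 1.56e-04). Mir21 rose by 0.81 ± 0.29, with array 1 the highest, at 9.54, against 7.81 to 8.56 in arrays 2 to 5. Its call was lost without pubertal array 1 (0.55, adjusted p 0.151) or 2 (0.81, adjusted p 0.0552) or pre-pubertal array 2 (0.75, adjusted p 0.0501). Mir142, whose gene is active in blood cells, fell by 1.40 ± 0.36. Mir126a, whose matched RefSeq entry has another name and is not printed, is hosted by the endothelial gene Egfl7 and had the largest fall of this class, from 8.56, 9.62 and 9.95 to 7.33, 7.30, 7.77, 7.82 and 8.21 (-1.84 ± 0.21, adjusted p 1.06e-07), while Egfl7 differed by -0.27 and did not pass. Egfl7 passed without pre-pubertal array 6 (-0.31, adjusted p 0.041) or 9 (-0.32, adjusted p 0.027).

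The step from day 21 to day 42 gave far more calls than the step from day 42 to day 63. From day 21 to day 42 the fit called 1883 genes up and 1669 down (17.1% and 15.2% of those tested), and from day 42 to day 63 it called 79 up and 55 down (0.719% and 0.501%). Both steps use the day 42 arrays, and each also shares arrays with the whole difference, so their values are only set side by side. The first step sets 5 arrays against 10 and the second 5 against 5, so the counts do not have the same precision. Csn3 differed by 6.42 in the first step and 0.60 in the second, and Pparg by -1.16 and -0.22. Pgr rose by 3.94 first and then differed by -0.88, which did not pass (adjusted p 0.532).

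A smaller set of genes passed in the second step. Pcsk2 differed by 0.17 in the first step, which did not pass, and rose by 2.09 in the second (adjusted p 1.92e-07). Wap rose by 2.78 in the second step (adjusted p 0.0243) after 0.76 in the first, which did not pass. Ccl11 rose by 1.79 (adjusted p 7.48e-04), Cyp24a1 by 1.86 (adjusted p 0.0027) and Xdh by 0.80 (adjusted p 0.00285). Of 23 interferon genes 8 were called up in this step, and Irf7 rose by 0.99 (adjusted p 0.0198). Penk fell in it, by 1.52 (adjusted p 0.00983), after a difference of +0.46 in the first, which did not pass (adjusted p 0.164). Whether the steps differ in size was not tested.

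**Figure D5:**
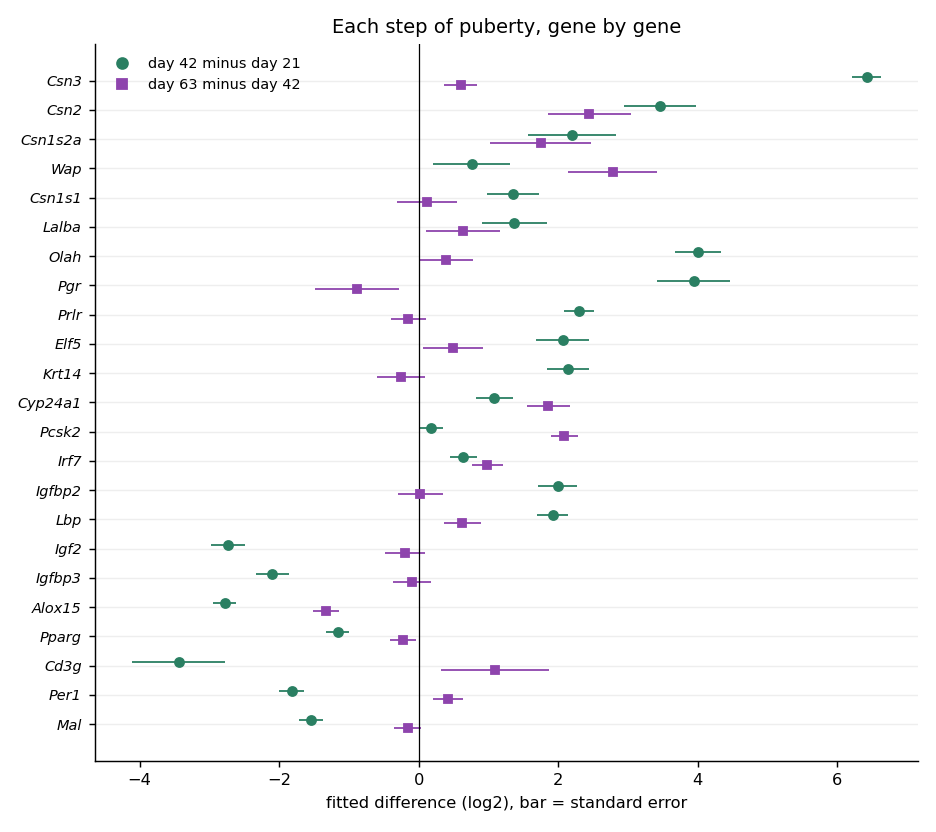
For 23 genes, the log2 difference of each step (day 42 minus day 21, and day 63 minus day 42) with its standard error. Csn3 has almost all of its difference in the first step and Pgr all of it, and Pcsk2 and Wap have most of theirs in the second.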

How the data were processed

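Total RNA from rat mammary glands was hybridised to Affymetrix whole-transcript arrays. The deposited values are log2 levels per probe set, made by the authors with RMA in Affymetrix Expression Console, per the submitters' processing notes (the sources used here name no versions). Of 36685 probe sets 18511 carried 1 gene symbol, 575 several and 17599 none listed here; 18394 of the single symbols were updated through RefSeq, and for 291 of 18166 symbols with several probe sets the brightest was used. Genes above the median of these values (7.645) in at least 3 arrays were tested, 10986 in all. The fit (limma 3.58.1 in R 4.3.3) had stage and labelled batch as terms over 33 arrays, a variance trend and Benjamini-Hochberg adjustment, with a call at an adjusted p under 0.05, and was tested on simulated data. P-values measure only the spread between these samples, and the number of arrays limits the precision.

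Named genes are the 12 largest rises and falls without overlap, a fixed panel, and members of 53 gene lists with their values. Of 944 list genes 844 were on the array with 1 symbol. The compared groups, gene lists and panel were chosen with earlier results of these data known, so their counts are descriptions. Alternatives covered the batch term, each batch, the arrays and stages fitted, filter, normalization, probe set choice, variance model, thresholds and marker list means as covariates. Promoter and microRNA sequences are RefSeq's (GRCr8).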

Additional observations from a re-analysis of the deposited data

Results flagged for a closer look

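Among 432 groups of values examined (each named gene and 8 marker list means, on the 10 pre-pubertal and on the 5 pubertal arrays), 31 held an array whose gap to its nearest fellow exceeded Dixon's 95% value for the group's range. Chance alone flags about 1 in 20 groups (5%), and values of 1 array are not independent of each other. Levels are deposited log2 values, with the nearest fellow's level in brackets.

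Pre-pubertal array 2 was lowest in 8 of them, all epithelial: Epcam at 4.498 (7.73), Muc15 at 5.11 (7.65), Elf5 at 5.80 (7.96), Ehf at 5.84 (7.61), Btn1a1 at 5.88 (8.48), Cd24 at 7.41 (9.01), Lalba at 7.47 (10.17) and Csn1s1 at 8.76 (11.56).

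Pre-pubertal array 8 was lowest for 7: Jchain at 5.16 (7.61), Ms4a1 at 5.60 (8.005), Grem1 at 5.72 (7.76), Rspo3 at 6.404 (6.91), Timd4 at 6.57 (7.88), Dkk2 at 7.07 (8.30) and Glycam1 at 7.24 (10.69). It was highest for Areg, at 8.56 (7.28).

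Pre-pubertal array 1 was lowest for Adipoq at 12.63 (13.06), Igf1 at 11.63 (12.02), Mir126a at 8.56 (9.25) and the white adipocyte list mean at 10.72 (11.13). Pre-pubertal array 10 was highest for the skeletal muscle list mean, at 9.89 (8.02), array 4 was highest for Mmp3, at 8.50 (7.06), and array 9 was lowest for Npas2, at 8.28 (8.90).

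Among the pubertal arrays, array 1 was highest for Areg at 8.91 (7.61) and Csf1r at 11.07 (10.58), and lowest for Csn3 at 13.12 (13.41) and Cd24 at 11.38 (11.85). Array 5 was highest for Pigr at 8.78 (6.87), Isg15 at 8.39 (6.77) and Mir365b at 7.65 (7.34). Array 4 was lowest for Tgfb2, at 8.37 (8.90).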

How the results depend on the processing

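No paired analysis was possible because the labels give the arrays of different stages no shared replicate numbers. With batch as a term the fit called 2109 genes up and 2060 down. The batch term mattered: without it 916 rose and 697 fell, and batch 2 alone, with 6 arrays, gave 757 and 375, of which 66.9% rose against 50.6% in the full fit. Stricter limits gave 434 and 281 (2-fold minimum), 1536 and 1240 (adjusted p under 0.01), and 1480 and 1313 (level filter at the 75th percentile, so fewer genes tested). Weights for array quality gave 2992 rises and 3338 falls, for which the cause was not tested. The luminal list mean as a covariate left 489 up and 487 down. No setting called a gene in the opposite direction. Leaving out 1 array gave 3421 called genes (without pubertal array 2) to 4373 (without pre-pubertal array 4), with 1802 to 2181 up and 1619 to 2192 down. The muscle covariate (4277 called) and leaving out arrays rich in muscle, a setting chosen after seeing the data (3946), changed little. The test of a difference between batches called 0 genes in each of 4 settings.

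The 208 named genes include genes not called in the main fit, which had no call to lose. Of the called ones, 17 lost their call in batch 1 alone, 40 in batch 2 alone and 23 without the batch term, and none of these reversed. With the luminal covariate 59 lost it and 16 turned sign, none passing in the new direction: Epcam to -0.55, Ehf -0.0094, Krt8 -0.024, Foxa1 -0.019, Wnt4 -0.085, Tnfsf11 0.022, claudins 3, 4 and 7 -0.14, -0.018 and -0.077, Csn1s1 -0.62, Lalba -0.80, Btn1a1 -0.0052, Cd3g 0.12, Cd79b 0.54, Ccl19 0.085 and Timd4 0.17. The number of arrays limits the precision, and day 21 levels under 7.64 lie in the low range of the scale, where signal is close to background.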

Other observations

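Brown and beige adipocyte genes were mixed, with 2 of 6 tested up and 4 down, against 19.2% and 18.8% over all genes. Fabp3, a fatty acid carrier of brown fat, muscle and lactating epithelium, went from 6.63, 6.97 and 7.49 before puberty to 7.86, 8.69, 8.87, 8.29 and 7.78 in puberty (1.31 ± 0.30, limma adjusted p 0.00103), and glycerol kinase (Gk) rose by 1.62 ± 0.19, both without overlap. Cpt1b, which admits fatty acids to mitochondria, fell by 0.997 ± 0.12 and the beige-fat factor Lhx8 by 1.27 ± 0.30. Among 14 genes of xenobiotic and steroid metabolism 2 rose and 4 fell. Cyp2e1, an enzyme that oxidises ethanol and small solvents, had 6.21, 8.53 and 10.18 on day 21 and 7.49, 6.38, 6.16, 6.07 and 6.78 on day 63 (-1.73 ± 0.55, adjusted p 0.0133). The sulfotransferase Sult1a1 fell by 1.23 ± 0.23 and the glutathione transferase Gstm1 by 0.62 ± 0.12, both without overlap. The count of 2 that rose became 0 without pubertal array 2, and 1 without pubertal array 1, 4 or 5.

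Mast cell genes fell in 3 of 8 and rose in 1, the one being Kit, which luminal progenitors also express. Batch 1 alone called 0 down (limma, 3 at an unadjusted p under 0.05) and batch 2 alone 1. Without pre-pubertal array 4 the rises were 2. The tryptase Tpsb2 fell by 0.85 ± 0.18. Of 8 eosinophil and neutrophil genes 2 rose and 4 fell. The neutrophil genes S100a9 and Cxcr2 fell by 0.94 ± 0.26 and 0.80 ± 0.13, and Siglec5 rose by 1.16 ± 0.20. Of 10 Hox genes tested 3 fell, Hoxa5 by 0.91 ± 0.18. Elastic fibre genes rose in 5 of 19 and fell in 4: the fibulin Efemp1 had 9.96, 10.96 and 11.43 on day 21 and 11.86, 12.18, 12.28, 12.10 and 11.47 on day 63 (1.13 ± 0.19), and Plod2, a lysyl hydroxylase of collagen, fell by 1.33 ± 0.16, both without overlap. Alpha-globin (Hba-a1), a transcript of red blood cells, had 8.07, 8.46 and 8.69 on day 21 and 7.19, 7.12, 7.27, 7.69 and 7.72 on day 63, without overlap (-1.01 ± 0.16, adjusted p 1.23e-05).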
